A study of Mus musculus with 49 samples.

Results

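The 9 genes described here make up 2 related cytokine systems of the mouse: Il10, Il19, Il10ra and Il10rb of the interleukin-10 (IL-10) family, and Il6, Osm, Lif, Il6ra and Il6st of the gp130 family. They were taken by gene symbol, 9 of the 24211 gene names listed in any of the 5 RNA tables. All 9 had a row in the macrophage table and passed its filter on low values. Only 6 or 7 had a row in each T cell table, where 5 or 6 passed.

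IL-10 is a secreted brake on inflammation. It binds a receptor made of the ligand-specific chain IL-10RA and the shared chain IL-10RB, and signals through JAK1, TYK2 and the transcription factor STAT3. IL-19 is a relative of IL-10 that signals through IL-20 receptor chains. IL-6, oncostatin M and LIF all signal through gp130, the product of Il6st, which also activates STAT3. IL-6 first binds IL-6RA, which is present on only some cells and can be shed.

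Cells of C57BL/6 mice were wild type (WT), labelled Elf4 knockout (KO) or carried the W250S substitution in Elf4, and were profiled by RNA sequencing (43 libraries) and by ATAC-seq, a measure of open chromatin (6 libraries). Elf4 encodes a transcription factor of the ETS family, and the study asked how it regulates inflammation. WT and KO macrophages (BMDM) were grown from bone marrow over 7 days with the growth factor M-CSF and left untreated (0 h) or exposed to lipopolysaccharide (LPS), a bacterial product sensed by TLR4, at 100 ng/ml over 4 h or 16 h; each genotype had 3 libraries at each time. Untreated naive CD4 T cells gave 4 libraries labelled KO with 3 WT, and separately 3 W250S with 3 WT. Th17 cultures of both latter genotypes lasted 48 h, as pathogenic Th17 cells (with the cytokines IL-6, IL-1b and IL-23) and as non-pathogenic Th17 cells (TGF-beta plus IL-6), with 3 libraries of each genotype in each culture. The ATAC-seq libraries were of naive CD4 T cells, 3 labelled KO and 3 WT. The labels state neither ages nor how the mutant alleles were made. A header row of the BMDM table gives its 18 libraries different deidentified mouse numbers, though the summed stromal markers (9 of 9 in the table) ranked the replicates in the same order at all 3 times in each genotype. Nothing says that T cell replicates are separate animals, so p-values measure only the spread between these libraries.

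RNA values are CPM, read counts scaled to library size by the authors, and are not divided by gene length, so levels are compared between samples and never between genes. The tables hold no read counts. In the BMDM table the commonest value below 1 CPM would, if it stands for 1 read, correspond to 11.5 to 16.8 M reads per library. ATAC-seq libraries held 6.19 to 9.71 M reads in peaks (WT) and 9.61 to 13.71 M (KO-labelled). Elf4 checks the genotype labels. It stood at 96.4 to 134 CPM in WT BMDM at 0 and 16 h and at 64.6 to 74.3 CPM at 4 h, against 15.5 to 32.6 CPM in all KO BMDM. In naive T cells Elf4 was 178 to 208 CPM in the libraries labelled KO and 186 to 195 CPM in WT, so those are called KO-labelled throughout. Macrophage markers (6 of 6 in the table) summed to 11500 to 26700 CPM in every BMDM library. T cell markers (6 of 6) summed to 1000 to 2060 CPM in every T cell library, and myeloid markers there (3 of 5 in each table) to at most 1.68 CPM.

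After LPS 1 of the 9 genes differed between the genotypes at 4 h, beside 4.19% of all tested genes, and 4 of 9 at 16 h, beside 30.5%. At 4 h Il19 mRNA was higher in KO than in WT macrophages, a call lost with a smaller pseudocount, and at 16 h Il19, Il10, Il6 and the receptor chain gene Il10rb were lower in KO. Of the 16 h calls, Il10 and Il10rb held in all 12 alternative analyses, Il19 in 11 and Il6 in 8. The gp130 receptor genes, Il6ra and Il6st, were lower at 4 h of LPS than at 0 h in both genotypes. Neither was called between the genotypes at any time in macrophages. In T cells single members were called in 3 of the 4 sets, where 2.06% to 8.03% of all tested genes were called. These calls were Osm in KO-labelled naive cells, Il10ra in pathogenic and Il6st in non-pathogenic Th17 cells. They held in 5 of 12, 6 of 10 and 7 of 11 alternatives that tested them.

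Promoter sequences are given for 4 members, 2 ligand genes that were strongly LPS-responsive and 2 receptor genes that lay under an ATAC-seq peak in naive T cells. RefSeq's table of the build GRCm38.p6, the same as mm10, held a promoter window for 5 of the 9 members (Il19, Il6, Lif, Il6ra and Il6st). The 250 bases before the start are printed 5′ to 3′ on the gene's strand, Il6 at chr5:30012864-30013113 (plus strand), Il19 at chr1:130940116-130940365 (minus, before a start that lies inside the gene's span), Il6st at chr13:112463820-112464069 (plus) and Il6ra at chr3:89913197-89913446 (minus). Capitals mark matches, on either strand, to any of 8 short motifs.
Il6: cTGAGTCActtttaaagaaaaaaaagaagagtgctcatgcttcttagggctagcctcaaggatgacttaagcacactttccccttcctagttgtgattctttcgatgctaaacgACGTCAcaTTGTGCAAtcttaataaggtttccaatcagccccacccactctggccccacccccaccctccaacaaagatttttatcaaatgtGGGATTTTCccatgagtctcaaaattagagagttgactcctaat
Il19: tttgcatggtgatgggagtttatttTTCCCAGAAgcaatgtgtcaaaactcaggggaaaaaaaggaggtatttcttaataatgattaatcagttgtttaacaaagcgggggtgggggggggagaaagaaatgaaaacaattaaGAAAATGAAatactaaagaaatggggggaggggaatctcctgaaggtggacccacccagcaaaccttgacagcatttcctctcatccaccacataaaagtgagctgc
Il6st: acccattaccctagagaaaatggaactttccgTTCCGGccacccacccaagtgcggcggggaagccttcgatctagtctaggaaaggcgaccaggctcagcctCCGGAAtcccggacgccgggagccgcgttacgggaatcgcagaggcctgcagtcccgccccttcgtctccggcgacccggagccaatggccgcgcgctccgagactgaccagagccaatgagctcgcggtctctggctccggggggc
Il6ra: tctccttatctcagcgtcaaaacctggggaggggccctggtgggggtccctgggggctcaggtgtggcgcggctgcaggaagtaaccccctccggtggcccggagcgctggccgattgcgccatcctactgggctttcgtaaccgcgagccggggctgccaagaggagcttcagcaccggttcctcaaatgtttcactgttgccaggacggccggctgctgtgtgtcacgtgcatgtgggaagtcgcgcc
The Il6 window held an NF-kB motif (GGGANTTTC), which 0.941% of the 32851 windows of the table hold. It also held a C/EBP motif (TTNNGCAA, 9.56% of windows), a cyclic-AMP response motif (TGACGT, 6.47%) and an AP-1 motif (TGANTCA, 6.75%). The Il19 window held a STAT motif (TTCNNNGAA, 7.02%) and an ISRE motif (GAAANNGAA, 7.13%). The Il6st window held 2 matches to an ETS motif (CCGGAA, 12.0%), a motif of the transcription factor family that ELF4 belongs to. No match was in the Il6ra window, and the Lif window, not printed, held an AP-1 motif. Both windows hold GGAA without CC before it, a form that was not searched. The eighth motif, TATAAA, matched none of these windows and is in 12.4% of all. A match says only that these letters are present. Other forms of the sites were not searched, so a window without a match may still hold one. The shares of windows given are for the exact letters searched.

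Il10, on chr1:131019845-131024970, encodes the IL-10 cytokine itself. At 0 h it stood at 2.57, 3.36 and 2.67 CPM in WT BMDM and at 2.95, 2.18 and 3.97 CPM in KO. At 4 h of LPS it was 504, 470 and 441 CPM in WT and 599, 469 and 597 CPM in KO. By 16 h it was 22.9, 18.1 and 20.02 CPM in WT, but 10.3, 7.48 and 6.38 CPM in KO. The genotypes overlapped at 0 h and 4 h and did not overlap at 16 h.

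By limma on log2(CPM + 1), the scale of every log2 value given for RNA, the KO minus WT difference in Il10 was 0.04 at 0 h (SE 0.165) and 0.23 at 4 h (SE 0.165, adjusted p = 0.512). At 16 h it was -1.25 (SE 0.165, adjusted p = 6.72e-05), lower in 3 of 3 KO libraries, the mean being 39.6% of that in WT. All 12 alternative analyses kept this call, with differences from -1.43 to -1.12. The KO effect at 16 h differed from that at 0 h by -1.30 (SE 0.233, adjusted p = 0.00575) and from that at 4 h by -1.48 (SE 0.233, adjusted p = 0.00415). From 4 h to 16 h Il10 fell to 4.32% of its 4 h mean in WT and to 1.45% in KO.

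**Figure D1:**
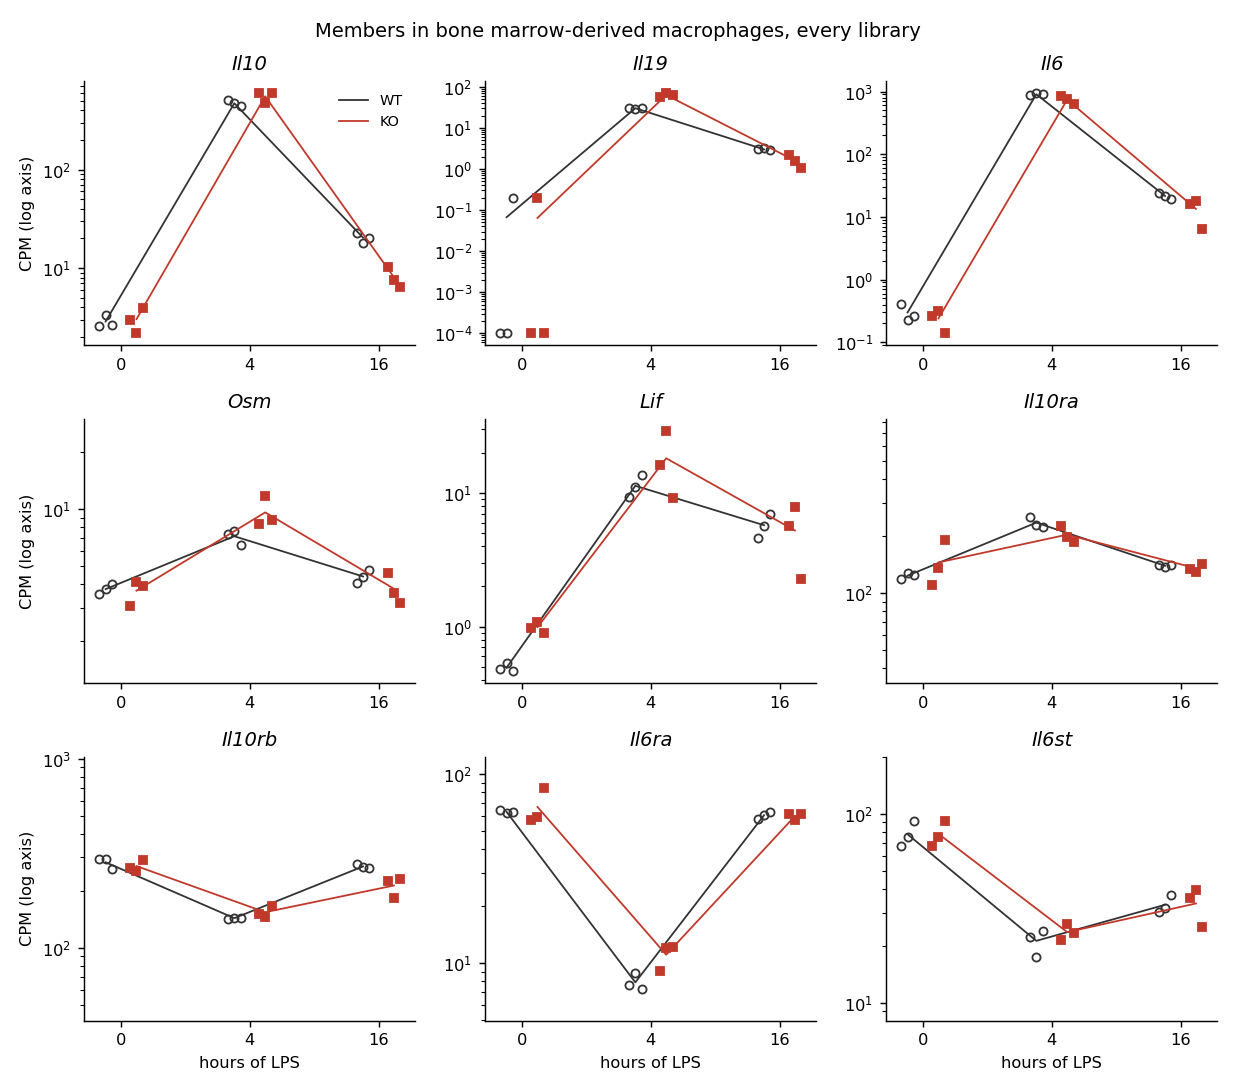
CPM (log axis) of the 9 genes in each of the 18 BMDM libraries against hours of LPS, WT as open circles and KO as red squares, with lines through the means; 0.0001 is the lowest value in the table. Il10 in KO lies below WT at 16 h, and Il19 in KO lies above WT at 4 h and below it at 16 h.

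Il19 lies 74.4 kb from Il10 on the same chromosome (chr1:130932656-130945457), with 1 predicted gene between them. It was near the floor at 0 h, listed at 0.0001 CPM, the lowest value in the table, in 4 of 6 libraries, and at 0.2 CPM in 1 WT and 0.192 CPM in 1 KO library. At 4 h it reached 30.9, 29.0 and 30.4 CPM in WT and 55.1, 70.4 and 63.8 CPM in KO. By 16 h it was 2.98, 3.17 and 2.83 CPM in WT against 2.14, 1.57 and 1.07 CPM in KO. So the KO libraries lay above all WT libraries at 4 h and below all of them at 16 h.

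The Il19 difference was 1.03 at 4 h (SE 0.151, adjusted p = 0.00177) and -0.64 at 16 h (SE 0.151, adjusted p = 0.00483), and the change between these effects was -1.68 (SE 0.214, adjusted p = 0.0011). These calls depended on the amount added before taking logs. The fit shares 1 spread over all 18 libraries, those near the floor at 0 h included. With 0.1 CPM added instead of 1 the 3 values were 1.06 (adjusted p = 0.171), -0.92 (adjusted p = 0.106) and -1.97 (adjusted p = 0.0685). None of the differences shrank, though each call was lost. Over all alternatives these adjusted p ranged from 0.0013 to 0.171, from 0.00147 to 0.106 and from 0.000153 to 0.0685. Il19 kept the sign of its difference in all 12 alternatives at 4 h and at 16 h, and 11 of 12 passed at each time. In the naive and Th17 tables neither Il10 nor Il19 has a row, so they are not analysed there.

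Il6, on chr5:30013114-30019975, encodes IL-6, the cytokine that opens gp130 signalling through IL-6RA. It was 0.402, 0.229 and 0.267 CPM in WT and 0.262, 0.320 and 0.139 CPM in KO at 0 h. At 4 h it was 871, 946 and 900 CPM in WT and 839, 763 and 626 CPM in KO, with no overlap, a difference of -0.30 (SE 0.229, adjusted p = 0.541). By 16 h it was 24.1, 21.6 and 18.98 CPM in WT and 15.9, 17.9 and 6.50 CPM in KO. KO replicate 3 was the lowest KO library by far at 16 h, and was also lowest there for Il10, Il19 and Lif.

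At 16 h the Il6 difference was -0.75 (SE 0.229, adjusted p = 0.0204), lower in 3 of 3 KO libraries. This call was lost when WT replicate 1 (adjusted p = 0.0768), WT replicate 2 (0.0534) or KO replicate 3 (-0.33, adjusted p = 0.0578) was left out, and when only libraries of 16 h were fitted (adjusted p = 0.0833). Over the 12 alternatives the adjusted p ranged from 0.00678 to 0.0833. The change in the KO effect from 0 h to 16 h was -0.68 for Il6 (SE 0.324, adjusted p = 0.203) and from 4 h to 16 h -0.45 (adjusted p = 0.448).

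Osm and Lif lie beside each other on chromosome 11, at chr11:4236785-4241026 and chr11:4257568-4272514, 16.5 kb apart with no gene between them. Osm encodes oncostatin M, which signals through gp130 with OSMR or LIFR, and Lif encodes leukemia inhibitory factor, which signals through gp130 with LIFR. Osm stood at 3.53, 3.75 and 4.00 CPM in WT and 3.08, 4.10 and 3.90 CPM in KO at 0 h. At 4 h Osm was 7.36, 7.67 and 6.46 CPM in WT and 8.32, 11.7 and 8.76 CPM in KO, which did not overlap, yet the difference of 0.36 did not pass (SE 0.147, adjusted p = 0.198). At 16 h Osm was 4.05, 4.35 and 4.76 CPM in WT and 4.59, 3.59 and 3.16 CPM in KO (-0.18, adjusted p = 0.36).

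Lif was 0.482, 0.535 and 0.467 CPM in WT and 0.983, 1.09 and 0.905 CPM in KO at 0 h, groups that did not overlap (0.41, SE 0.329, adjusted p = 0.784). That SE shares the spread of all 18 libraries. The SD of log2(CPM + 1) was 0.034 in WT and 0.067 in KO at 0 h, but 0.78 and 0.74 in KO at 4 and 16 h. At 4 h Lif was 9.27, 11.1 and 13.5 CPM in WT and 16.1, 29.1 and 9.21 CPM in KO, and at 16 h 4.62, 5.61 and 6.97 CPM in WT and 5.66, 7.78 and 2.26 CPM in KO. Its differences were 0.51 at 4 h (adjusted p = 0.446) and -0.21 at 16 h (adjusted p = 0.658). KO replicate 2 was highest for Lif at every time, and it was also highest for the 9 stromal markers, which summed to 1770, 1360 and 2880 CPM in it at 0, 4 and 16 h. Their sums were 435 to 1430 CPM in the other KO libraries and 308 to 1010 CPM in WT, and none of the 9 was at 0. Their part in the Lif values was not tested. In bulk RNA fewer cells of a type and less RNA per cell cannot be told apart.

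Of the receptor genes, Il10rb encodes the shared chain IL-10RB and lies on chr16:91406157-91425834. It was 293, 296 and 260 CPM in WT and 263, 255 and 292 CPM in KO at 0 h, and 142, 143 and 144 CPM against 150, 145 and 167 CPM at 4 h, where the groups did not overlap but the difference of 0.10 did not pass (adjusted p = 0.579). By 16 h it was 276.4, 267 and 263 CPM in WT and 225, 184 and 231 CPM in KO, with no overlap. The difference at 16 h was -0.34 (SE 0.0844, adjusted p = 0.00655), which all 12 alternatives called. The change in effect from 4 h to 16 h was -0.44 (SE 0.119, adjusted p = 0.0465), a narrow call. It kept its sign in all 17 alternatives, but only 6 of them called it, with adjusted p from 0.00706 to 0.116. Leaving out any one of 9 of the 12 libraries ended that call, all 3 of WT at 4 h (adjusted p from 0.0855 to 0.0919), all 3 of WT at 16 h (0.0821 to 0.105), KO replicates 1 (0.0635) and 3 (0.116) at 4 h and KO replicate 2 (0.101) at 16 h.

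Il10ra, the ligand-binding chain of the IL-10 receptor (chr9:45253837-45269149), was 118 to 127 CPM in WT and 110 to 190 CPM in KO at 0 h, 224 to 252.5 against 186 to 226 CPM at 4 h, and 137 to 141 against 129 to 143 CPM at 16 h. KO replicate 3 was the high library at 0 h, at 190 CPM, while the other KO libraries were 110 and 135 CPM. Its differences were 0.20, -0.21 and -0.04 (adjusted p = 0.713, 0.422 and 0.823), with 95% intervals from -0.08 to 0.47, from -0.49 to 0.06 and from -0.32 to 0.23.

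Il6ra, the IL-6 binding chain (chr3:89869324-89913196), was 64.4, 62.0 and 62.7 CPM in WT and 57.3, 59.4 and 84.2 CPM in KO at 0 h. At 4 h it was 7.62, 8.81 and 7.28 CPM in WT and 9.04, 12.0 and 12.2 CPM in KO, which did not overlap. The difference of 0.43 at 4 h did not pass (SE 0.127, adjusted p = 0.0651), and it did pass without KO replicate 1 (0.56, adjusted p = 0.0225; range over all alternatives 0.0225 to 0.205). At 16 h it was 57.8 to 63.0 CPM in WT and 56.8 to 61.6 CPM in KO, with a difference of -0.02 (95% interval -0.28 to 0.25).

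Il6st, the gene of gp130 (chr13:112464070-112506860), was 67.45, 75.1 and 91.1 CPM in WT and 67.6, 75.4 and 91.9 CPM in KO at 0 h. It was 17.5 to 23.9 CPM in WT and 21.4 to 26.2 CPM in KO at 4 h, and 30.2 to 37.2 against 25.3 to 39.7 CPM at 16 h. The genotypes overlapped at every time, and the differences were 0.01 (95% interval -0.33 to 0.35), 0.15 (-0.19 to 0.49) and 0.00 (-0.34 to 0.34).

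**Figure D2:**
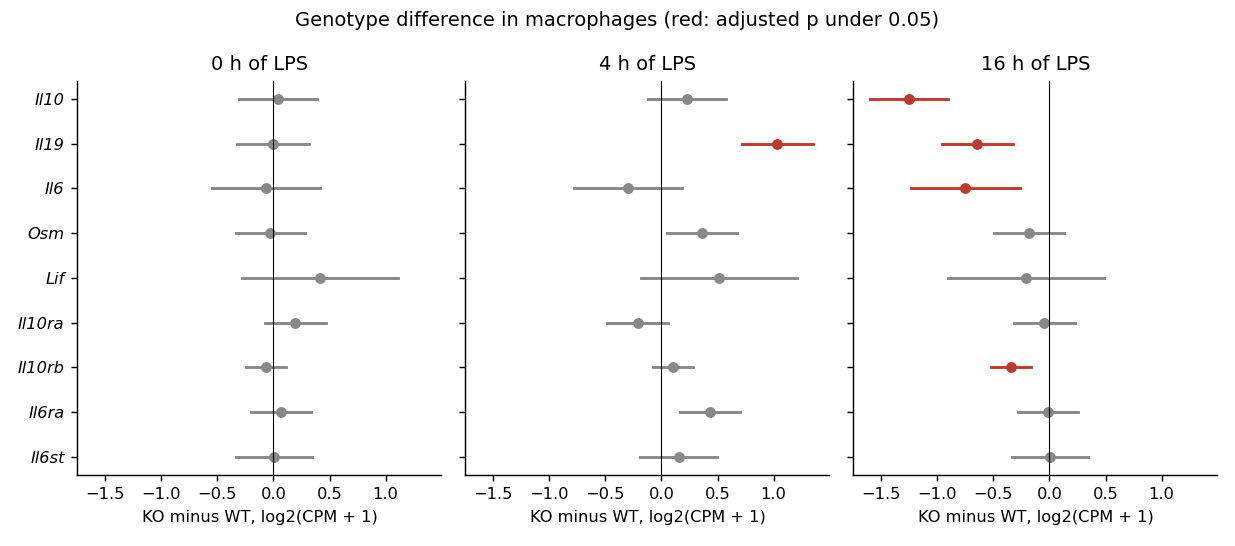
KO minus WT difference in log2(CPM + 1) for each gene in BMDM at 0, 4 and 16 h of LPS; points are limma estimates, lines 95% intervals, and red marks an adjusted p under 0.05. Il19 alone is red at 4 h (1.03), and Il10 (-1.25), Il6 (-0.75), Il19 (-0.64) and Il10rb (-0.34) are red at 16 h.

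Counted over the members, KO differed from WT in 0 of 9 at 0 h, where 0.44% of 12058 tested genes were called. None had an unadjusted p under 0.05 either, in a fit whose spread is shared by all 18 libraries. At 4 h it was 1 of 9 (4.19% of all genes), higher in KO. At 16 h it was 4 of 9 (30.5% of all genes), all lower, with a member median of -0.21 against 0.12 over all genes. Of the calls over all genes, 32.1%, 56.8% and 68.4% were higher in KO at 0, 4 and 16 h on the deposited scale, and 19.4%, 40.3% and 47.2% after median-ratio scaling, under which Il10, Il19, Il6 and Il10rb were still called lower at 16 h. For the change in KO effect, 0 of 9 members were called between 0 h and 4 h (0.00829% of all genes; 2 at an unadjusted p under 0.05). From 0 h to 16 h it was 1 (6.45%, of which 56.2% were higher calls, and 35.1% after median-ratio scaling), and from 4 h to 16 h 3 (4.06%). Cell type markers also differed between the genotypes at 16 h. Neutrophil markers (6 of 7 in the table, none at 0 in every library) summed to 27.1 to 38.2 CPM in WT and 75.6 to 103 CPM in KO. Macrophage markers (6 of 6) summed to 16200 to 17400 CPM in WT and 21000 to 26700 CPM in KO, with Lyz2 (0.77), Csf1r (0.38) and Adgre1 (0.30) called higher, Cd68 (-0.49) called lower, and Fcgr1 (-0.44) and Mertk (0.05) not called. Stromal markers (9 of 9) summed to 547 to 1010 CPM in WT and 913 to 2880 CPM in KO. Neutrophil and stromal sums were also higher in KO on average before 16 h, with ranges that overlapped. Neutrophil sums averaged 15.3 CPM in KO against 4.99 in WT at 0 h, and 15.1 against 5.07 at 4 h. Stromal sums averaged 1090 CPM in KO against 549 in WT at 0 h, and 843 against 412 at 4 h. The part of these markers in the 16 h differences was not tested.

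LPS moved the members in 2 directions by 4 h. In WT BMDM at 4 h against 0 h, 9 of 9 members were called, beside 86.8% of all genes, 6 higher and 3 lower. On the deposited scale the median over all tested genes was -0.81 in this comparison, -0.41 for 16 h against 0 h and 0.35 for 16 h against 4 h, and member changes are read against those shifts. Higher calls were 17.9%, 24.4% and 69.7% of all calls in these 3. After median-ratio scaling they were 49.0% at 4 h, 4045 of 8090 at 16 h and 47.2% from 4 h to 16 h. Il6 rose by 9.45 (SE 0.229), Il10 by 6.94 (SE 0.165), Il19 by 4.87 (SE 0.151), Lif by 3.03 (SE 0.329), Il10ra by 0.93 (SE 0.13) and Osm by 0.78 (SE 0.147), all with adjusted p at or below 8.44e-05. Il6ra fell by 2.85 (SE 0.127, adjusted p = 5.93e-13) and Il6st by 1.82 (SE 0.162, adjusted p = 6.76e-09), both also called lower after median-ratio scaling. Il10rb fell by 0.975 on the deposited scale (SE 0.0844), near the shift of all genes, and its value after median-ratio scaling was -0.07 (adjusted p = 0.589).

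By 16 h the 3 patterns had separated. In WT at 16 h against 0 h, 5 of 9 members were called (74.8% of all genes), with Il6 4.11, Il10 2.47, Lif 2.16 and Il19 1.91 higher and Il6st 1.21 lower. Il6ra, which had dropped to 12.5% of its 0 h mean at 4 h, was back at 96.1% of it at 16 h, while Il6st stood at 27.3% and then 42.4%. After median-ratio scaling all 9 were called against 0 h, beside 8090 calls over all genes. Il10rb was then 0.39 and Il6ra 0.40 higher, where the deposited scale gave -0.07 and -0.06, and Il10ra was 0.63 and Osm 0.53 higher. From 4 h to 16 h all 9 members were called in WT (73.2% of all genes), the 5 ligands and Il10ra lower and Il10rb, Il6ra and Il6st higher. After median-ratio scaling the Il6st rise was 0.19 and was not called (adjusted p = 0.299). The Lif fall of 0.87 (adjusted p = 0.0246) was lost without WT replicates 2 (adjusted p = 0.0511) or 3 (0.0875) of 4 h or 1 (0.0863) or 2 (0.0535) of 16 h.

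In KO BMDM the same comparisons called 9 of 9 at 4 h (86.4% of all genes), 6 of 9 at 16 h against 0 h (67.9%) and 9 of 9 from 4 h to 16 h (75.4%). Higher calls were 18.1%, 26.2% and 73.9% of all calls in these, and 48.8%, 51.8% and 49.1% after median-ratio scaling. The extra call was Il10rb, -0.34 at 16 h against 0 h (adjusted p = 0.00156), which after median-ratio scaling was 0.013 (adjusted p = 0.929). Its other KO changes, -0.81 at 4 h and 0.46 from 4 h to 16 h, also turned sign with that scaling (0.048 and -0.035). Il10 was 7.12 higher at 4 h and 1.17 higher at 16 h than at 0 h, against 6.94 and 2.47 in WT. Osm stood at 39.4% of its 4 h mean at 16 h in KO and at 61.3% in WT, and Lif at 28.9% and 50.8%, differences between the genotypes that did not pass (adjusted p = 0.14 and 0.396). The Il6st rise in KO from 4 h to 16 h (0.47, adjusted p = 0.0148) was lost without KO replicate 1 of 4 h (0.0601) or replicates 1 (0.0545) or 2 (0.0876) of 16 h, and its value after median-ratio scaling was -0.016. These KO and WT time courses share no libraries, but each shares its 0 h or 4 h libraries between comparisons.

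**Figure D3:**
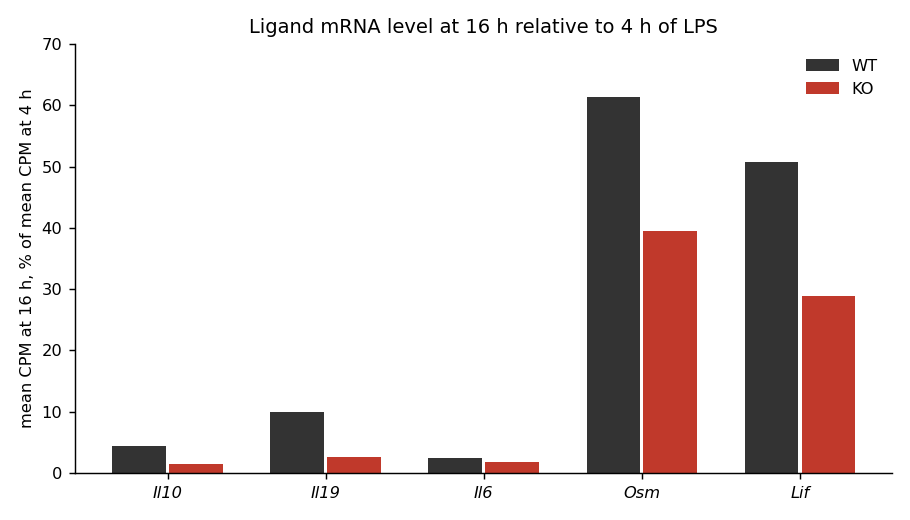
Mean CPM at 16 h of LPS as a percentage of mean CPM at 4 h for the 5 ligand genes in WT (dark) and KO (red) BMDM, ratios of means of 3 libraries each with no error bars. Il10 is at 4.32% in WT and 1.45% in KO, and Il19 at 9.94% and 2.53%.

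Other genes of these pathways were read from lists. Their counts stand beside the shares of all tested genes called between the genotypes, 0.44% at 0 h, 4.19% at 4 h and 30.5% at 16 h. Of 14 other gp130-family genes 9 were tested in BMDM, and at 16 h 2 were higher and 2 lower in KO. Il27, which encodes one subunit of the cytokine IL-27, was 11.7 to 15.6 CPM in WT and 5.90 to 10.2 CPM in KO (-0.71, SE 0.143, adjusted p = 0.00181), and Ebi3, its other subunit, averaged 304 against 241 CPM (-0.34, adjusted p = 0.00628). Lifr, the LIF receptor, was 0.462 to 1.28 CPM in WT and 1.49 to 2.92 CPM in KO (0.69, adjusted p = 0.0121), and was also called at 4 h (0.74, adjusted p = 0.0343). The 2 genes of this list most abundant among the uncalled, Il11ra1 and Osmr, differed by -0.26 and 0.68 (adjusted p = 0.189 and 0.221). Of the 8 other IL-10 family genes only Il20rb was tested, and it was not called between genotypes (0.12 at 16 h, adjusted p = 0.603).

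Among 12 JAK-STAT signalling genes, all tested, 0 were called at 0 h, 1 at 4 h (Stat5b, -0.34) and 2 at 16 h (30.5% of all genes), both lower in KO. Among them was Tyk2, a kinase of the IL-10 receptor (103 to 107 CPM in WT and 68.0 to 84.4 CPM in KO, -0.50, adjusted p = 0.000358). Of 14 STAT3 feedback and IL-10 response genes 4 were higher and 3 lower in KO at 16 h, with a list median of 0.04 against 0.12 for all genes. Il1rn, the IL-1 receptor antagonist and an IL-10 target, was 3410 to 3920 CPM in WT and 1540 to 2420 CPM in KO (-1.02, SE 0.154, adjusted p = 0.000216), and Tnfrsf1b, a TNF receptor, and Pim1, a kinase, were also lower (-0.58 and -0.345). Cd163, a scavenger receptor, Nfil3 and Cebpd, both transcription factors, were the 3 largest increases (1.14, 0.66 and 0.64). Socs3, the STAT3 feedback inhibitor, was 684 to 703 CPM in WT and 691 to 754 CPM in KO at 16 h (0.07, adjusted p = 0.665), and was called higher at 0 h (0.67, adjusted p = 0.0151).

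Among 14 listed regulators of Il10 transcription 13 were tested, and 2 were lower in KO at 16 h and none higher, beside 30.5% of all genes called. The list median was -0.16. Maf, an activator of Il10, was 454 to 516 CPM in WT and 369 to 416 CPM in KO (-0.31, SE 0.0722, adjusted p = 0.00446), and its effect had changed from 0 h (-0.46, adjusted p = 0.017). Rel, an NF-kB subunit, was the other (-0.37, adjusted p = 0.0403), while Nfkb1 was not called (0.07, adjusted p = 0.519). Of 8 genes acting in cytokine mRNA decay, 1 rose and 2 fell in KO at 16 h. Zfp36, which encodes the decay factor tristetraprolin, was 259 to 283 CPM in WT and 134 to 185 CPM in KO (-0.80, adjusted p = 0.00127), and Zc3h12a, which encodes the RNase regnase-1, differed by -0.24 (adjusted p = 0.0467). Zfp36l1, a relative of Zfp36, was higher at 16 h (0.51, adjusted p = 0.0297) and at 4 h (0.83, adjusted p = 0.00916). None of 4 receptor-shedding genes was called at any time, the 2 most abundant being Adam17 (0.18, adjusted p = 0.0515) and Adam10 (0.13, adjusted p = 0.187) at 16 h.

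Over the 18 BMDM libraries the genes most like Il10 in log2(CPM + 1), among 9536 tested genes averaging 5 CPM or more, were Tlk2 (Pearson r = 0.996), Trim21 (0.996) and Il27 (0.995). For Il6 they were Peli1 (0.998), Cd40 (0.998) and Nfkbib (0.997), for Osm Gtf2a1 (0.96), Steap4 (0.947) and Il19 (0.946), and for Lif Naa25 (0.969), Eif4g2 (0.967) and Plpp3 (0.967). The libraries fall into 3 time points, which these values share, so they carry no p.

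T cells expressed receptor genes of both systems and the ligand genes Osm and, in Th17 cultures, Lif. In naive CD4 T cells Il6ra was 239 to 260 CPM in WT and 247 to 257 CPM in the KO-labelled libraries, and 279 to 353 against 308 to 325.02 CPM in the W250S set. Il6st was 226 to 259 against 238 to 275.8 CPM, and 223 to 318 against 229 to 257 CPM. In both Th17 cultures the 2 genes stood lower, Il6ra at 26.3 to 43.6 CPM and Il6st at 20.3 to 37.5 CPM over all genotypes. Lif, by contrast, was at most 0.362 CPM in naive cells, under the filter, and 42.9 to 59.7 CPM in the Th17 cultures. Naive and Th17 tables were scaled separately by the authors, so these levels are set side by side and were not tested.

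**Figure D4:**
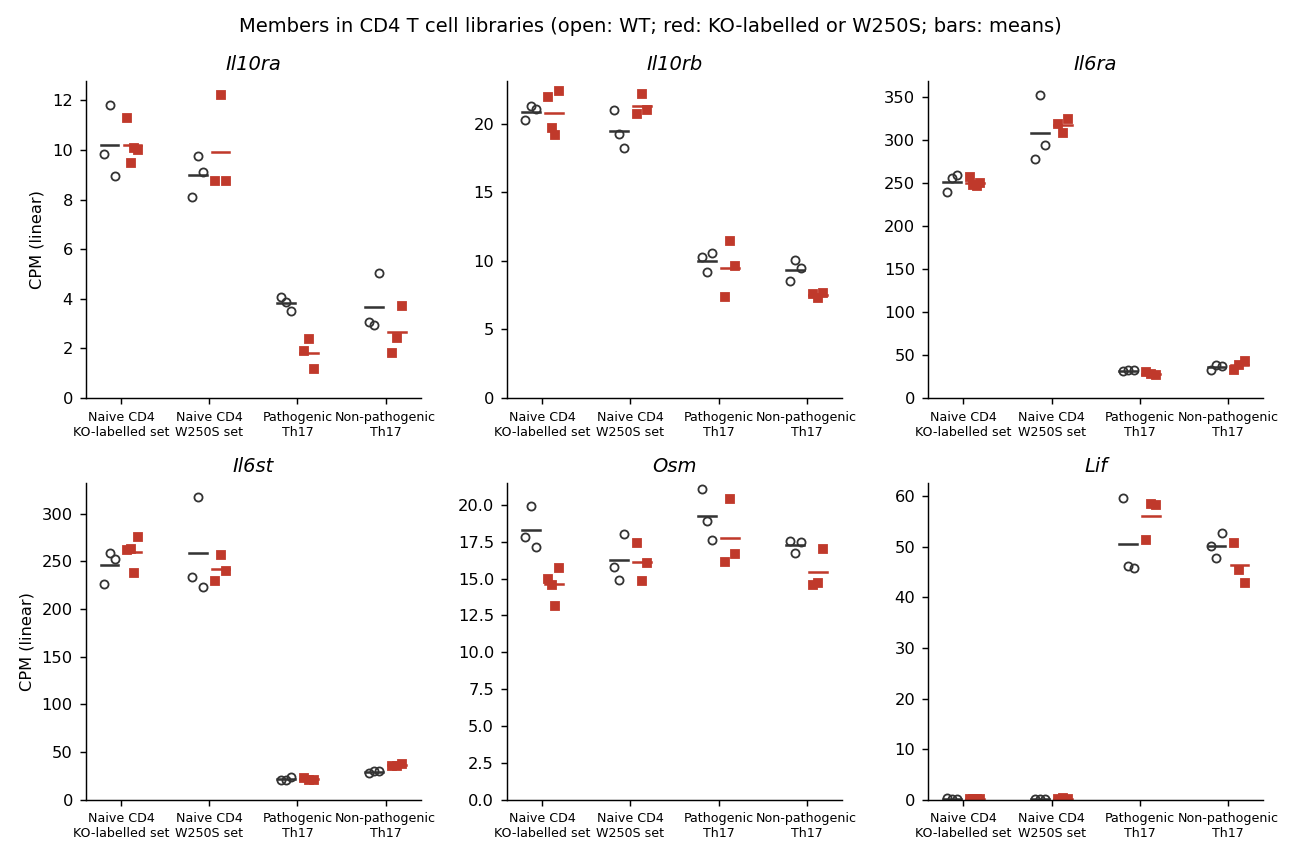
CPM (linear axis from 0) of 6 genes in naive CD4 and Th17 libraries, WT as open circles and KO-labelled or W250S as red squares, with bars at the means. Il6ra and Il6st are high in the naive sets and Lif in the Th17 sets; Osm in the KO-labelled naive libraries, and Il10ra in pathogenic W250S cells, lie below WT.

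In the KO-labelled naive set 1 of 5 tested members was called, beside 8.03% of all genes. Osm was 17.8, 19.9 and 17.2 CPM in WT and 14.98, 14.6, 13.2 and 15.7 CPM in the KO-labelled libraries, with no overlap. The difference was -0.31 (SE 0.0833, adjusted p = 0.0438), lower in 4 of 4 libraries. The call was lost without any of the WT replicates 1, 2 and 3 (adjusted p = 0.109, 0.128 and 0.0585) or KO-labelled replicates 1, 2 and 3 (0.0871, 0.106 and 0.0967), and without a filter on low values (0.0557). Over all alternatives the adjusted p ranged from 0.0221 to 0.128. Regulatory T cell markers (4 of 4) summed to 7.02 to 8.26 CPM in WT and 9.64 to 11.4 CPM in the KO-labelled libraries, and neutrophil markers (4 of 7 in the table) to 0.0385 to 0.386 against 0.386 to 2.32 CPM; their part in the Osm difference was not tested. In the W250S naive set 0 of 5 were called, beside 4.16% of all genes (79.5% of these calls higher, 55.1% after median-ratio scaling), with none at an unadjusted p under 0.05. Osm there was 14.9 to 18.003 CPM in WT and 14.8 to 17.4 CPM in W250S (-0.01, 95% interval -0.25 to 0.23).

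In pathogenic Th17 cells 1 of 6 tested members was called, beside 2.06% of all genes. Il10ra was 4.08, 3.88 and 3.49 CPM in WT and 1.88, 2.38 and 1.19 CPM in W250S, with no overlap (-0.80, SE 0.147, adjusted p = 0.0223), lower in 3 of 3 libraries. This gene is at a few CPM, and the call was lost without the libraries headed WT_1 (adjusted p = 0.08), WT_2 (0.0511), W250S_1 (0.079) or W250S_3 (0.0948). It is removed by a filter at 5 CPM. The other 5 were not called, with differences of -0.11 for Osm, -0.09 for Il10rb, 0.00 for Il6st, 0.15 for Lif and -0.175 for Il6ra (adjusted p = 0.191), Il6ra being 31.0 to 32.7 CPM in WT and 26.3 to 30.0 CPM in W250S. Il6 had a row in this table, at 0 to 0.181 CPM, under the filter.

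In non-pathogenic Th17 cells 1 of 6 tested members was called, beside 7.06% of all genes. Il6st was 28.3, 30.3 and 29.7 CPM in WT and 35.5, 35.7 and 37.5 CPM in W250S, with no overlap (0.29, SE 0.063, adjusted p = 0.0235), higher in 3 of 3 libraries. It was lost without the library headed WT_3 (adjusted p = 0.105), W250S_1 (0.093), W250S_2 (0.111) or W250S_3 (0.082), with estimates from 0.27 to 0.31. Il10rb was 8.55, 10.1 and 9.45 CPM in WT and 7.60, 7.31 and 7.67 CPM in W250S (-0.28, adjusted p = 0.0695), and was called without WT_1 (-0.34, adjusted p = 0.0321) and after median-ratio scaling (-0.31, adjusted p = 0.0221). Il10ra was 2.94 to 5.05 against 1.83 to 3.73 CPM (-0.36, adjusted p = 0.259). Whether these W250S differences differ between the 2 cultures was not tested. Th17 markers (5 of 5) summed to 40.3 to 58.6 CPM in WT and 65.0 to 104 CPM in W250S in pathogenic cultures, and to 53.3 to 78.9 against 99.5 to 137 CPM in non-pathogenic ones. None was at 0, and their part in these results was not tested.

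Other pathway genes in T cells changed in ones and twos. In non-pathogenic W250S cells Stat5a (0.25), Rel (0.33), the shedding cofactor gene Rhbdf2 (0.38) and Zc3h12a (0.57) were higher and Nfil3 (-0.445), Socs1 (-0.315) and Arid5a (-0.365) lower. In pathogenic W250S cells Stat5a (0.34) and Zc3h12a (0.43) were higher. In naive cells the gp130-family ligand gene Clcf1 was called higher in W250S (0.57, adjusted p = 0.00523) and was 0.23 in the KO-labelled set (adjusted p = 0.0921), where the IL-27 receptor gene Il27ra was called higher (0.26, adjusted p = 0.0313).

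Chromatin at these genes was assayed in naive CD4 T cells. The authors' annotation assigned 54 of the 86911 peaks to 6 members (20 to Il6st, 17 to Il6ra, 7 to Lif, 5 to Il10rb, 4 to Il10ra and 1 to Osm), of which 32 passed the filter on counts. None of the 32 was called between KO-labelled and WT libraries by edgeR's quasi-likelihood test, beside 4 calls in 47000 tested peaks (0.00851%). By DESeq2 0 of 32 were called too, with 64 calls over all peaks. An unadjusted p under 0.05 was found for 1 of 32 in edgeR and in DESeq2. Over all 47000 tested peaks it was found for 4641 in edgeR and 2555 in DESeq2. The median log2 difference of the 32 was -0.07, against -0.01 over all peaks. The peak over the Il6ra start, chr3:89912392-89913718, held 290, 380 and 535 reads in WT and 773, 499 and 687 in the KO-labelled libraries, a difference of -0.03 after scaling (adjusted p = 0.949). That over the Il6st start, chr13:112463448-112464520, held 258, 282 and 465 reads in WT and 609, 418 and 587 in KO-labelled ones (-0.03, adjusted p = 0.921). The printed promoter windows of both genes lie inside these peaks.

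Peaks over the starts of 3 other members gave -0.08 for Osm (chr11:4236073-4238079, adjusted p = 0.819), -0.03 for Il10rb (chr16:91405756-91406994, adjusted p = 0.952) and -0.09 for Il10ra (chr9:45268369-45269190, adjusted p = 0.904). The single peak with an unadjusted p under 0.05 was at Il10rb, chr16:91412963-91413282, with 5, 2 and 7 reads in WT and 22, 20 and 15 in the KO-labelled libraries (1.31, adjusted p = 0.408). At the Osm start the signal was 62.3 ± 6.87 CPM in peaks in WT and 59.0 ± 3.63 in the KO-labelled libraries (SD, n = 3 each). Without WT replicate 1, 2070 peaks were called over the genome and still 0 at members.

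**Figure D5:**
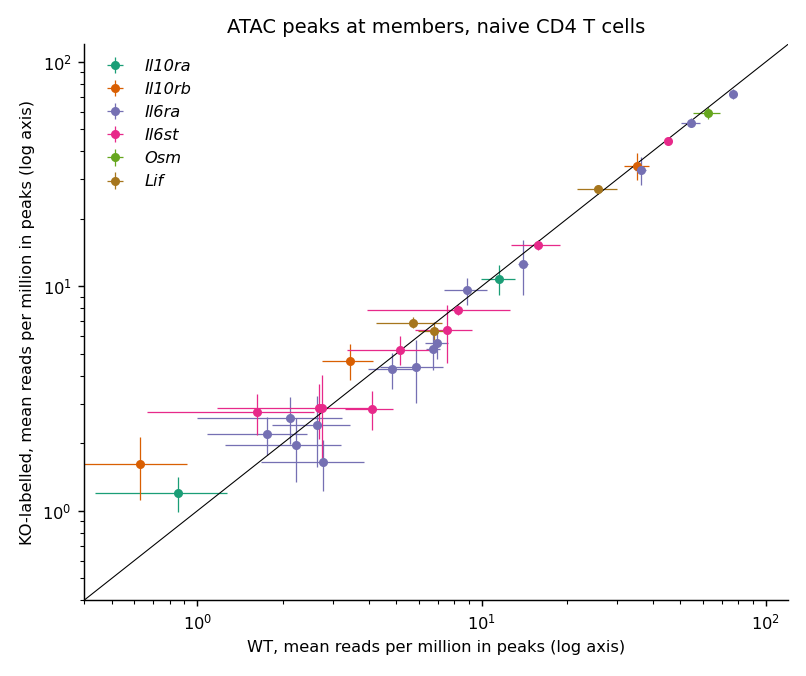
Mean CPM of reads in peaks (log axes) for the 32 tested ATAC-seq peaks at 6 members, WT against KO-labelled naive CD4 T cells, with bars of 1 SD over 3 libraries and the line of equality. The peaks lie near the line, the farthest above it being a low peak at Il10rb (1.31 on the log2 scale).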

How the data were processed

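Each of the 5 RNA tables lists CPM per gene, as deposited and scaled by the authors. The submitters' processing notes name the build mm10 and BWA, Bowtie2, MACS2, DESeq2 and Partek 10.0.21.0411, with no role given. The ATAC-seq peak table gives expected counts (estimated reads) from the authors, rounded here. No value column was left unmapped (0). The test for RNA was limma 3.58.1 (R 4.3.3, moderated with a mean-variance trend) on log2(CPM + 1). A gene was kept if 3 or more libraries reached 1 CPM. Tests were two-sided, with Benjamini-Hochberg adjustment over all tested genes and a threshold of 0.05. One model held the 18 BMDM libraries (17.3 degrees of freedom), and each T cell table had its own, since tables were scaled separately. ATAC-seq used edgeR 4.0.16 (TMM, filterByExpr, quasi-likelihood), with DESeq2 1.42.0 as an alternative. The code was tested on simulated data. The CPM tables give no depth, so no counting intervals are given.

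Members and lists were chosen with earlier results of these data known. Beside the members, genes could be named from each list and comparison if among the 3 largest called changes in each direction or the 2 most abundant uncalled genes, and some of these are not reported here. Alternatives were the pseudocount (0.1), no filter or a filter at 5 CPM, median-ratio scaling, libraries of a single time, a replicate block and leaving out each library. Same-numbered WT BMDM libraries of different times, though given different mouse numbers in a header row, deviated together (r from 0.108 to 0.307 over 9 pairs). Same-numbered KO libraries of different times did so too (r from 0.0566 to 0.533). Pairing by these numbers entered only the replicate block, an alternative. The main fit, and the p-values given from it, took all libraries as unpaired.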

Additional observations from a re-analysis of the deposited data

Results flagged for a closer look

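The effect of the Elf4 knockout on 3 members differed between times of LPS by a test of that difference. For Il10 the KO minus WT difference in log2(CPM + 1) at 16 h was 1.30 lower than at 0 h (the value is -1.3, adjusted p = 0.00575) and 1.48 lower than at 4 h (-1.48, adjusted p = 0.00415). For Il19 the effect at 16 h minus that at 4 h was -1.68 (adjusted p = 0.0011), from higher in KO in 3 of 3 libraries to lower in 3 of 3. That call held in 16 of 17 alternatives and was lost with a pseudocount of 0.1 (adjusted p = 0.0685). For Il10rb the effect at 16 h minus that at 4 h was -0.44 (adjusted p = 0.0465), a call that 11 of 17 alternatives lost. All are limma tests with 3 libraries per genotype and time. The same 4 h libraries enter the 3 differences against 4 h.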

How the results depend on the processing

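Of 1619 alternative values of 130 member results with a test, 42 lost the call with the same sign and 8 gained one; 66 had the other sign, 6 of them where either value was called; except where shown, the cause was not tested. The number of members called in KO against WT at 4 h was 0 with a pseudocount of 0.1 and 1 to 2 leaving out one library. For the KO effect it was 0 to 1 (4 h minus 0 h) and 1 to 2 (16 h minus 0 h) leaving one out, and 2 for the latter with median-ratio scaling. It was 9 with that scaling for WT at 16 h against 0 h. In T cells it was 0 without a filter and 0 to 1 leaving one out (naive KO-labelled), 0 with a filter at 5 CPM, which removes Il10ra, and 0 to 1 leaving one out (pathogenic Th17), and 2 with median-ratio scaling and 0 to 2 leaving one out (non-pathogenic Th17). Median-ratio scaling reversed Elf4 at 4 h against 0 h (0.29 in WT, 0.48 in KO), Il10rb (0.39 in WT at 16 h against 0 h; in KO 0.048 at 4 h and 0.013 at 16 h against 0 h, and -0.035 from 4 h to 16 h), Il6ra in WT at 16 h against 0 h (0.40) and Il6st in KO from 4 h to 16 h (-0.016). Counts over all genes moved by over 1.5 times for KO against WT at 0 h (53, to 31 with median-ratio scaling, and to 1 with libraries of that time only) and 4 h (505 to 248, that time only), and for non-pathogenic Th17 (905 to 1723, median-ratio). Without one library they ranged from 18 to 95 (0 h), 247 to 473 (4 h), 282 to 1031 (effect at 16 h minus 0 h), 195 to 898 (16 h minus 4 h), 0 to 40 (4 h minus 0 h), 466 to 1380 (naive KO-labelled), 204 to 557 (naive W250S), 42 to 370 (pathogenic) and 54 to 2112 (non-pathogenic). Naive W250S fell from 516 to 330 with no filter. ATAC-seq calls over all peaks were 64 by DESeq2, 52 without a filter and 0 with a replicate block. The replicate block changed no member call; it left 9, 5 and 9 members called in the 3 WT time comparisons, where the numbers were treated as pairs. KO BMDM libraries of one number also deviated together across times (r from 0.0566 to 0.533), and the block was run there too. Elsewhere samples share only a number (r from -0.197 to 0.123 between KO and WT BMDM, -0.0389 to 0.164 in naive KO-labelled and 0.0331 to 0.324 in naive W250S sets). The block moved counts over all genes from 778 to 1788, 489 to 1221 and 1 to 43 for the KO effects, 1036 to 1597 (naive KO-labelled) and 516 to 1261 (naive W250S). The Th17 columns are numbered, but the numbers could not be tied to the titles; a replicate block by column number, chosen after seeing the data, left 1 member called in each culture, with 244 (pathogenic) and 1467 (non-pathogenic) genes called (r from -0.177 to 0.0753 and 0.0119 to 0.175). A count test on reads recovered from CPM was not run, since values were not whole multiples of a step.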
